A study of Rattus norvegicus with 2 samples.

Results

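XLOC_414038 is a long noncoding RNA (lncRNA) locus of the rat hypothalamus, and the genes described with it are Krt8, Krt18, Eif4b, Tns2, Spryd3 and Csad, which lie beside it on chromosome 7. These 7 genes were chosen by name, as the locus and its named neighbours, from 22777 mRNA genes and 3543 lncRNA loci. The 6 protein-coding members were found by symbol, and Tns2 was found under its older symbol Tenc1 with the identifier ENSRNOG00000010588. The study listed 8 genes beside the locus, which are these 6, Igfbp6 and Soat2. Genes were listed there by their distance from a lncRNA, and these 8 stand under its transcript TCONS_00465242. The study also named XLOC_414038 among the rat lncRNAs with possible targets shared with goat, and measured these lncRNAs and targets by qRT-PCR.

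Hypothalamic RNA of female Sprague Dawley rats was sequenced before puberty, on postnatal day 25, and at the first estrus, on postnatal day 35. No agent, transgene or mutation was named for either stage. The series design gives 3 hypothalamuses per stage, but the tables give a single column for either stage, and the sources used here do not say how the animals were merged. Either column was therefore taken as 1 library, and differences are described without a test. Expression was given as FPKM, in which the fragments of a transcript are divided by its length in kilobases and by the size of the library. The 9 hypothalamic marker genes that were looked up, among them Agrp, Hcrt, Oxt and Avp, were all above 0 in both libraries, and Sim1, the lowest, had 2.01 FPKM before puberty and 2.57 FPKM at puberty. Their sum was 2698 FPKM before and 4113 FPKM at puberty, with 8 genes higher and 1 lower. Pmch held most of this sum, with 1675 FPKM before and 2723 FPKM at puberty. The part of tissue composition in the values of the members was not tested.

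FPKM does not state the number of fragments behind it. Low FPKM values of loci with a single transcript of more than 2000 nt fell on whole multiples of 1 step, once the length had been shortened by 257 nt in the prepubertal and 251 nt in the pubertal library. Of these low values, 435 of 451 and 493 of 513 lay within 0.05 of a whole number. The step was 0.0481 FPKM for 1 fragment on 1 kilobase before puberty and 0.0617 FPKM at puberty, a ratio of 1.28, so the same FPKM rested on more fragments in the prepubertal library. Fragment numbers below were derived from these steps. Their 95% intervals cover counting error only, not the spread between rats, and fragments amplified by PCR are not independent molecules.

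Keratins 8 and 18 are the type II and type I partners of the intermediate filament of simple epithelia, and neither forms a filament without a partner of the other type. The other neighbours have unrelated roles. Eif4b codes for a cofactor of the RNA helicase eIF4A in the initiation of translation, Tns2 for tensin 2, a protein of focal adhesions, Spryd3 for a protein with a SPRY domain, and Csad for cysteine sulfinic acid decarboxylase, an enzyme of taurine synthesis. A lncRNA can act on genes close to it, which is why neighbouring genes are commonly listed as its possible targets.

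In the deposited sequences XLOC_414038 has 2 transcripts, TCONS_00465243 of 2588 nt and TCONS_00465242 of 2365 nt. They were identical except for a stretch of 223 bases, bases 710 to 932 of TCONS_00465243 counted from its 5′ end, which TCONS_00465242 lacks. The placement of the stretch can be shifted by 1 base without a difference in either sequence. Both transcripts have 709 bases before and 1656 bases after it in common. It is shown in capitals, with 30 shared bases on each side in lower case, because it is the one feature that separates the transcripts:
TCONS_00465243 stretch: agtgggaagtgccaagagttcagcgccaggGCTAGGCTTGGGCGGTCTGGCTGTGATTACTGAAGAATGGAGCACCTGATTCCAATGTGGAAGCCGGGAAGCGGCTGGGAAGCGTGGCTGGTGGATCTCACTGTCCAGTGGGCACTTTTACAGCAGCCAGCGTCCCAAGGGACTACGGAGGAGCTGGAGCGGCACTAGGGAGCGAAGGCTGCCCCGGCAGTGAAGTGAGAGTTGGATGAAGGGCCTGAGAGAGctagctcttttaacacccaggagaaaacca
TCONS_00465242 has no sequence of its own, and is marked only by the junction where the flanks meet, shown with 20 bases on each side in lower case:
TCONS_00465242 junction: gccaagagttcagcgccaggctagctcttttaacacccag
The stretch had a GC content of 60.1%, against 50.3% for the whole of TCONS_00465242. The longest open reading frame from ATG to stop was 234 nt in both transcripts and lay after the stretch, from base 1423 to base 1656 of TCONS_00465243. Each transcript has 3 runs in lower case in the deposited file, 166 bases in all, the longest of 87 bases near the 3′ end. Of the other 4050 lncRNA sequences, 23 shared 30 or more consecutive bases with the locus on either strand, and 0 did so outside the runs in lower case.

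The files give no genome position for the locus. Its first 43 bases matched the end of 1 promoter window of RefSeq (250 bases before to 50 after the annotated start of a gene, build GRCr8), that of the noncoding gene LOC134479789. The match lies at chr7:135109898-135109940 on the minus strand, and the transcripts begin 7 bases after the annotated start of LOC134479789. This window is shown because it places the locus, with the 43 matched bases in capitals:
LOC134479789 promoter window: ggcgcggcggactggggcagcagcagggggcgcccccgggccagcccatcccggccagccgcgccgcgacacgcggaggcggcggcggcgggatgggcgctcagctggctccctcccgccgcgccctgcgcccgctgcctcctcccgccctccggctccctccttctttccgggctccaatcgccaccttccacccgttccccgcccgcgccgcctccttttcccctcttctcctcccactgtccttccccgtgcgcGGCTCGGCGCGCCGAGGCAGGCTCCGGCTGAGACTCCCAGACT
In the order of genes in GRCr8, LOC134479789 stands beside Eif4b and Tns2, and its annotated interval overlaps both. Tns2 is annotated on the plus strand, opposite to LOC134479789, and its promoter window lies at chr7:135112309-135112608. From the starts used for these windows LOC134479789 and Tns2 run apart, so their overlap does not follow from these starts. Where that overlap lies was not examined. The libraries were strand-specific, and the methods name a strand setting for the assembly but none for the estimate of FPKM, so a contribution of fragments from the opposite strand to either gene was not tested. The files name a build other than GRCr8, and the overlap was not examined in that build.

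XLOC_414038 had nearly the same summed level in both libraries, while the split between its transcripts differed. The summed FPKM was 3.58 before puberty and 3.83 at puberty, a log2 ratio of (FPKM + 1) of 0.07, from 168 and 145 fragments. The counting interval of the ratio of FPKM, 1.07, ran from 0.849 to 1.34 and includes equal levels. TCONS_00465243 had 2.39 FPKM before and 3.83 FPKM at puberty, a log2 ratio of 0.51. TCONS_00465242 had 1.20 FPKM before puberty and was listed at 0 at puberty, a log2 ratio of -1.14. The share of the shorter transcript in the FPKM of the locus was thus 33.5% before puberty and 0% at puberty.

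The separation of the transcripts rested on few fragments. The authors' estimate attributed 115 fragments to TCONS_00465243 and 52.5 to TCONS_00465242 before puberty, numbers that need not be whole for a single transcript, and their sum came out whole. If fragments covered each transcript evenly, 12.1% of the positions in TCONS_00465242 would give a fragment across its junction, which corresponds to 6.38 of the 52.5 fragments. For TCONS_00465243, 20.5% of the positions would give a fragment that touches the stretch, or 23.7 fragments before puberty and 29.3 at puberty. These are expectations, since the files hold no count of fragments across the junction. The 0 at puberty is likewise the authors' fitted value for the transcript, so no fold change of FPKM is given for TCONS_00465242.

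As a rule of size, values of FPKM + 1 that differed by a factor of 2 or more were counted. With the listed 0 taken at face value, TCONS_00465242 passed this 2-fold rule as the 1 of 2 transcripts of the locus, beside 45.6% of all 4052 lncRNA transcripts that were lower by this rule in the pubertal library. Most of those were short. Among the 701 lncRNA transcripts of at least 1000 nt, the share that was lower by 2-fold was 1.28%, and 3.14% were higher. The locus as a whole did not pass the rule, which 48.7% of all lncRNA loci passed downward and 1.21% upward. Of the 387 lncRNA loci with several transcripts, 110 had a transcript that was listed at 0 at puberty beside another above 0 in both libraries, 28.4%, and 19 loci showed the reverse listing. With transcripts of at least 1000 nt alone, as both of XLOC_414038 are, 8 of 96 loci had such a transcript at 0 at puberty, 8.33%.

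**Figure D1:**
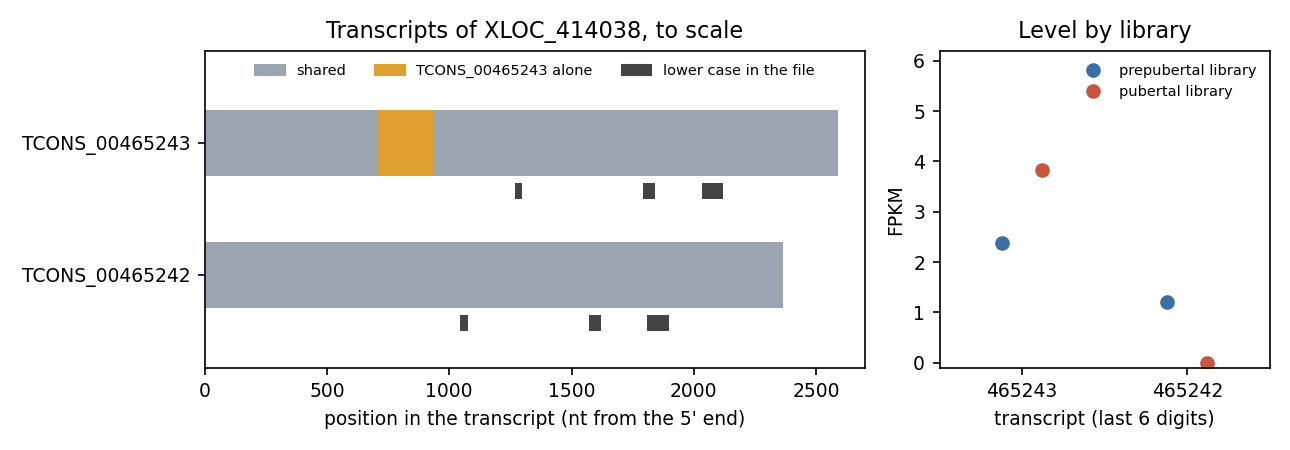
Left, the transcripts of XLOC_414038 to scale along the transcript in nt, with the 223 bases of TCONS_00465243 alone, the shared sequence and the runs in lower case. Right, the FPKM of each transcript in both libraries, without an error bar since fragments cannot be assigned to 1 transcript with certainty. TCONS_00465243 was at 2.39 and 3.83 FPKM and TCONS_00465242 at 1.20 and 0 FPKM.

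Krt8 (ENSRNOG00000009779) showed the largest difference of the protein-coding members. Its FPKM was 3.68 before puberty, from 112 fragments, and 5.96 at puberty, from 142 fragments, although the pubertal library had fewer fragments for the same FPKM. The ratio was 1.62 with a counting interval of 1.25 to 2.09, and the log2 ratio of (FPKM + 1) was 0.57. Of the 14029 mRNA genes at FPKM of at least 1 in 1 library, 2.11% had a larger log2 ratio. Krt18 (ENSRNOG00000047393) had 4.66 FPKM from 109 fragments and 5.83 FPKM from 107 fragments, a ratio of 1.25 with an interval of 0.949 to 1.65 that includes 1. Its log2 ratio was 0.27, and 11.0% of the expressed mRNA genes had a larger one.

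The partners were thus both higher in the pubertal library, Krt8 beyond counting error and Krt18 within it. The FPKM of Krt8 was 0.791 times that of Krt18 before puberty and 1.02 times that of Krt18 at puberty. Their levels per kilobase were thus closer at puberty as listed, but their counting intervals overlapped in both libraries. In bulk tissue, fewer cells of a type and less RNA per cell cannot be told apart, and the same holds for more cells and more RNA. RefSeq names 6 pseudogenes of Krt18 and 1 of Krt8 in GRCr8, and the authors' treatment of fragments that match a gene and its copies is not stated, so the FPKM of both carry that uncertainty.

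The promoter windows of the pair are shown since both genes were higher at puberty in FPKM. Capitals mark TATAAA, a form of the TATA box, CCAAT, the core of the CCAAT box, and GGGCGG, the core of the GC box, on either strand, which do not share bases except where TATAAA overlaps its own reverse complement:
Krt8 promoter window: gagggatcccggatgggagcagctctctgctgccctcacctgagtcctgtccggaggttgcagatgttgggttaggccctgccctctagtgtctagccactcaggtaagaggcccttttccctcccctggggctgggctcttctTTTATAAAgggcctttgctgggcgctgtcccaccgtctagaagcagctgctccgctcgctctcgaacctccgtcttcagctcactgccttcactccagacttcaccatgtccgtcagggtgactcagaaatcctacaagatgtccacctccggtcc
Krt18 promoter window: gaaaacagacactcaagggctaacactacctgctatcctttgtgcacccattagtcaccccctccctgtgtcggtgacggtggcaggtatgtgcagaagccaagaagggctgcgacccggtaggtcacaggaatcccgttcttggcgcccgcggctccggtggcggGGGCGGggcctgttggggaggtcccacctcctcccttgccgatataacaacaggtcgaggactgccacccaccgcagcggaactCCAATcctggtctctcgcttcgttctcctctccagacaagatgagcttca
The windows lie at chr7:135010290-135010589 on the minus strand for Krt8 and at chr7:135035918-135036217 on the plus strand for Krt18 (GRCr8). The Krt8 window holds TATAAA on both strands, 104 and 106 bases before the annotated start, and neither of the other motifs. That start falls on an ATG in the printed window, so it may be the start of the coding sequence. The distances then need not be counted from the start of transcription. In the Krt18 window no ATG lies at the start, so the windows may not be aligned on like sites. The Krt18 window holds GGGCGG 84 bases before the start and CCAAT at the start itself, and no TATAAA. Of all 33469 promoter windows, TATAAA was found in 14.2%, CCAAT in 37.5% and GGGCGG in 33.1%. None of the 3 motifs was found in the windows of Tns2 and Igfbp6, while the Csad window has 1 GGGCGG, and the Spryd3 window holds 3 copies of GGGCGG beside 2 copies of CCAAT. The LOC134479789 window holds 2 copies of GGGCGG and 1 of CCAAT, which are not marked where it is shown. Eif4b and Soat2 had no window in the table used.

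Keratin genes in general were low in this tissue. Of 46 keratin genes in the mRNA table, 13 were listed at 0 in both libraries. Another 20 had more FPKM at puberty and 13 had less, and the median log2 ratio was 0.00. Many of these directions rested on few fragments, such as 0 and 1 for Krt16, 1 and 3 for Krt7 and 1 and 0 for Krt13. Of the 46, 9 reached 1 FPKM in 1 library, Krt71 only at puberty, with 0.986 and 1.26 FPKM. Krt222, at 21.6 and 22.7 FPKM, was the highest in both libraries. By FPKM, Krt18 ranked 2 and Krt8 ranked 3 before puberty, and they changed places at puberty. Of the 9 genes at 1 FPKM or more, 7 were higher and 2 lower, with a median of 0.10, against -0.01 over all 14029 mRNA genes at this level, of which 6864 were higher and 7165 lower. This background depended on the scaling, with 8161 of the 14029 higher with equal medians and 12591 with equal Actb. Of the 46 keratin genes, 22 and 23 were higher under these scalings. Krt8 had the largest log2 ratio of the 9, followed by Krt17, at 1.85 and 2.80 FPKM from 48 and 57 fragments, and Krt18. Krt19, another type I keratin of simple epithelia, was at 1.15 and 1.31 FPKM, and Krt7, another type II keratin of such epithelia, at 0.0431 and 0.165 FPKM. No keratin passed the 2-fold rule, which 0.307% of all mRNA genes passed upward and 0.373% downward.

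**Figure D2:**
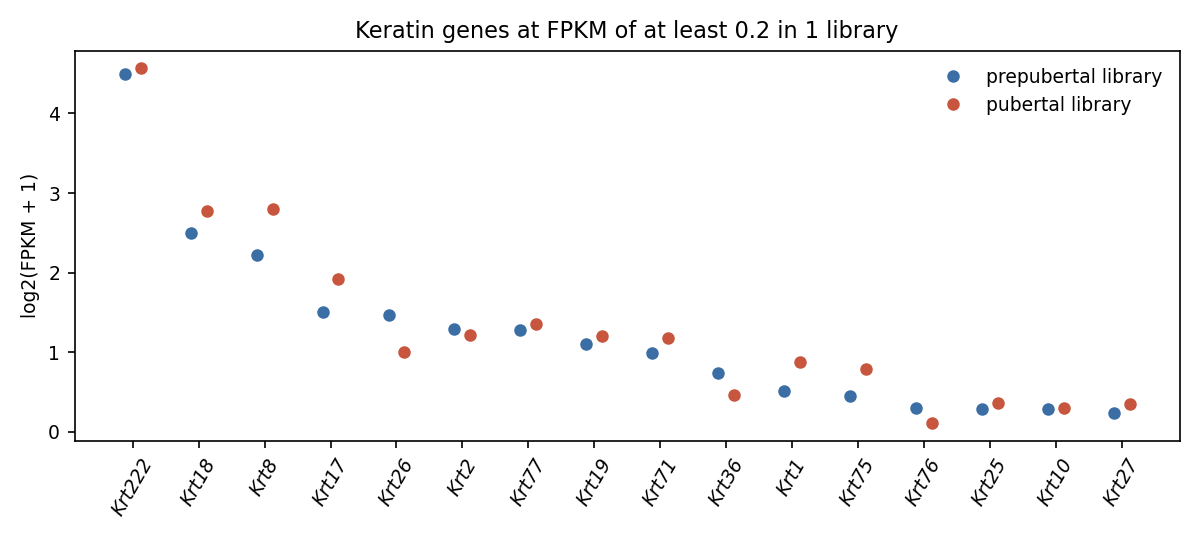
log2(FPKM + 1) of each keratin gene that reached 0.2 FPKM in 1 library, ordered by the prepubertal level, with 1 point per library. Krt8 and Krt18 lie next to each other below Krt222, and both have their higher point in the pubertal library.

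The other cytoplasmic intermediate filament genes ranged from levels below Krt8 and Krt18 to levels far above. Gfap, the filament gene of astrocytes, had 257 and 288 FPKM, and the vimentin gene Vim 68.5 and 64.7 FPKM, while the desmin gene Des had 2.05 and 1.97 FPKM and the syncoilin gene Sync 4.18 and 5.93 FPKM. Of the 11 genes of this list, 5 were higher and 6 lower at puberty, with a median log2 ratio of -0.04. Of 11 genes for partners and linkers of keratin filaments, 2 were higher and 9 lower, with a median of -0.15. Among these, the plakophilin gene Pkp2 was at 2.101 and 1.121 FPKM and the plakoglobin gene Jup at 8.28 and 6.31 FPKM. The higher genes were Fbf1, at 7.67 and 9.05 FPKM, and Tchp, at 14.4 and 14.9 FPKM, both of which code for keratin-binding proteins. With the libraries scaled to equal Actb, which raised the median log2 ratio of all expressed mRNA genes by 0.37, the medians of these lists became 0.32 and -0.03, with 9 of 11 and 5 of 11 genes higher. Under that scaling 12591 of the 14029 expressed mRNA genes were higher.

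Markers of cells that could bring in Krt8 and Krt18 were set beside them. The 7 pituitary genes summed to 31.8 FPKM before puberty and 44.5 FPKM at puberty, with 5 higher and 2 lower. The prolactin gene Prl was listed at 0 before puberty and at 3.40 FPKM from 41 fragments at puberty. The growth hormone gene Gh1 was at 0.872 FPKM from 10 fragments and 4.09 FPKM from 37 fragments. Prl and Gh1 passed the 2-fold rule upward, while Cga, the gene of the shared subunit of pituitary glycoprotein hormones, was at 24.6 FPKM from 211 fragments and 29.97 FPKM from 203 fragments. The 9 choroid plexus genes were found under 10 identifiers and summed to 42.4 and 36.9 FPKM, with Ttr at 29.0 and 23.0 FPKM and Aqp1 at 1.22 and 2.21 FPKM. Of the 7 ependymal and tanycyte genes, 6 were found, with 94.4 and 97.6 FPKM in sum, 3 higher and 3 lower. The 6 genes of other epithelia summed to 3.46 and 3.25 FPKM, with 4 higher and 2 lower. Epcam, at 1.68 and 1.32 FPKM from 42 and 26 fragments, and Cdh1, at 0.523 and 0.193 FPKM from 45 and 13 fragments, were the lower ones. Krt7, Krt19, Elf3 and Cldn4 were the higher ones. Krt19 rested on 27 and 24 fragments, but Krt7 on 1 and 3, Elf3 on 2 and 6 and Cldn4 on 0 and 1. The pituitary sum was thus higher at puberty in the same libraries as Krt8, and its part in the keratin values was not tested.

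Eif4b (ENSRNOG00000010103) was the most abundant member. It had 113 FPKM before puberty and 122 FPKM at puberty, from about 7952 and 6757 fragments. The ratio was 1.09, with a counting interval of 1.05 to 1.12, and the log2 ratio was 0.12, which lies inside the quartiles of expressed mRNA genes, -0.17 and 0.14. The number of fragments makes so small a difference exceed counting error, but not necessarily the spread between rats, which these files do not show. RefSeq names 4 pseudogenes of Eif4b in GRCr8, so its FPKM may hold fragments of copies. Of the 14 genes for initiation of translation that were set beside it, Eif4b included, 4 were higher and 10 lower, with a median log2 ratio of -0.12, and 0 passed the 2-fold rule. With equal medians 7 of 14 were higher, and with equal Actb 13 of 14. Of the 14029 expressed mRNA genes, 8161 were higher with equal medians and 12591 with equal Actb. The split of this list thus depended on the scaling, as did that of all genes, since 1 factor is applied to every gene. The higher genes were Eif4b, Eif4a2, Eif4e and Eif4h. The helicase genes Eif4a1 and Eif4a2 were at 247 and 238 FPKM and at 810 and 940 FPKM, and Pabpc1, which codes for the poly(A)-binding protein, was at 23.6 and 17.1 FPKM.

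Tns2 (ENSRNOG00000010588) was the least abundant member, at 2.42 FPKM from 198 fragments before puberty and 2.23 FPKM from 143 fragments at puberty. All of it came from 1 of its 2 listed transcripts, ENSRNOT00000074212 of 4203 nt, as ENSRNOT00000014310 was listed at 0 in both libraries. The ratio was 0.924 with an interval of 0.740 to 1.15, so no difference was detectable at this depth, and the log2 ratio was -0.08. Of the 17 tensin and focal adhesion genes, Tns2 included, 15 were lower, 1 was higher and Tns4 was listed at 0 in both libraries, with a median of -0.16. The other tensin genes Tns1 and Tns3 were at 3.79 and 3.20 FPKM and at 24.4 and 19.8 FPKM. With equal Actb 15 of 17 were higher and the median of the list became 0.15, below the 0.36 of all expressed mRNA genes under that scaling. Tns2 is known from vascular and fibroblast cells as well. The 8 fibroblast and meningeal genes were all lower at puberty as deposited, 4 of them with equal Actb, summing to 143 and 102 FPKM. Of these, Col1a1, at 9.57 and 2.93 FPKM, and Slc6a20, at 14.3 and 6.12 FPKM, passed the 2-fold rule. The 7 endothelial and mural genes found summed to 175 and 173 FPKM. Their part in the value of Tns2 was not tested.

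Spryd3 (ENSRNOG00000010793) had 94.5 FPKM from about 4236 fragments before puberty and 105 FPKM from 3696 fragments at puberty. The ratio was 1.12 with a counting interval of 1.07 to 1.17, and the log2 ratio was 0.16. Of the expressed mRNA genes, 22.9% had a larger log2 ratio, so the difference is common in size although it exceeded counting error. The list of 11 SPRY domain genes was found under 12 identifiers, of which 8 were higher and 4 lower, with a median of 0.08. With equal medians 10 of 12 and with equal Actb all 12 were higher, the latter with a median of 0.44. Of the 14029 expressed mRNA genes, 8161 and 12591 were higher under these scalings, with medians of 0.05 and 0.36. Spryd4 was at 12.2 and 15.7 FPKM, Spryd7 at 77.1 and 82.1 FPKM, and Ranbp10 at 8.93 and 7.41 FPKM.

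Csad (ENSRNOG00000011573) had 15.9 FPKM from 703 fragments before puberty and 15.1 FPKM from 525 fragments at puberty. The ratio was 0.954 with an interval of 0.851 to 1.07, so a difference was not detectable, and the log2 ratio was -0.06. Among the 10 genes of taurine synthesis and transport, Csad included, 2 were higher and 8 lower, with a median of -0.10. With equal Actb 6 of 10 were higher, beside 12591 of the 14029 expressed mRNA genes. Cdo1, which makes the substrate of Csad from cysteine, was at 59.6 and 64.7 FPKM. Slc6a13, a transporter of GABA and taurine, was at 8.72 and 3.71 FPKM, from 321 and 107 fragments, and was the 1 gene of the list past the 2-fold rule. The taurine transporter gene Slc6a6 was at 12.5 and 11.9 FPKM. Slc6a13 is also a gene of meningeal cells, whose 8 markers were all lower at puberty as given for Tns2, and the part of these cells was not tested. The 6 astrocyte genes, set beside Csad because astrocytes take part in taurine synthesis, summed to 1228 and 1072 FPKM, with 3 higher and 3 lower.

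The levels of the 7 members, compared per kilobase as FPKM, spanned 46.6-fold from Tns2 to Eif4b before puberty and 54.8-fold at puberty. The order before puberty was Eif4b, Spryd3, Csad, Krt18, Krt8, XLOC_414038 and Tns2. At puberty Krt8 stood above Krt18 and the rest of the order was the same. The counting intervals of Krt18 and Krt8 overlapped in both libraries, and those of Krt8 and XLOC_414038 overlapped before puberty, at 3.03 to 4.43 and 3.06 to 4.17 FPKM, but not at puberty, at 5.02 to 7.02 and 3.23 to 4.50 FPKM. All other neighbours in the order had intervals that did not overlap. Eif4b was above 95.5% of all mRNA genes in its prepubertal level and Krt8 above 49.9%.

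**Figure D3:**
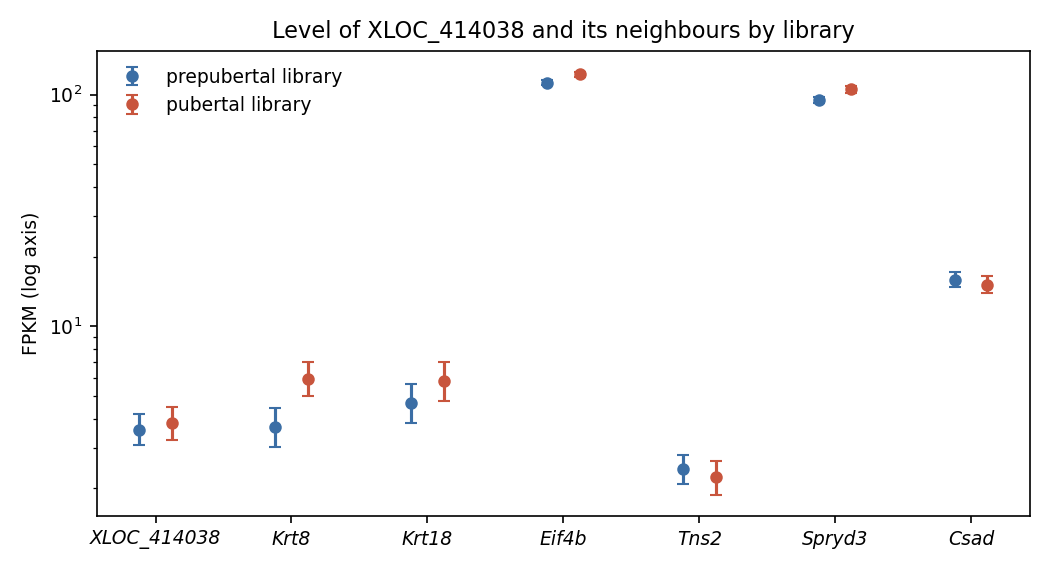
FPKM of the 7 members on a log axis, 1 point per library, with bars for the 95% exact Poisson interval of the fragments, which covers counting error only. Eif4b and Spryd3 lie highest, Csad at 15.9 and 15.1 FPKM, and the other 4 lower, with Krt8 at 3.68 and 5.96 FPKM, and the bars of the libraries do not overlap for Krt8, Eif4b and Spryd3.

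Of the 6 protein-coding members, 4 were higher and 2 lower at puberty, with a median log2 ratio of 0.14, and 0 passed the 2-fold rule, beside 0.681% of all mRNA genes in either direction. For 3 of them, Krt8, Eif4b and Spryd3, the counting interval of the log2 ratio excluded 0, each on the higher side. Of 10430 expressed mRNA genes with 1 transcript above 0 of at least 1000 nt, 18.7% were higher and 25.5% lower beyond counting error, so an interval that excludes 0 was common between these libraries. With equal Actb, the intervals of the FPKM ratio of Krt18, Csad and XLOC_414038 excluded 1 as well, from 1.26 to 2.18, 1.13 to 1.42 and 1.12 to 1.78, as did those of 72.4% of these genes on the higher side. The lncRNA locus had a log2 ratio of 0.07, and Eif4b and Tns2, which stand beside LOC134479789, had 0.12 and -0.08. The direction of Tns2 and Csad depended on the scaling, since their log2 ratios became 0.21 and 0.32 with equal Actb, a scaling that raised all genes. Under it the medians of the translation initiation and taurine lists became 0.27 and 0.15, both positive, against 0.36 for all expressed mRNA genes.

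**Figure D4:**
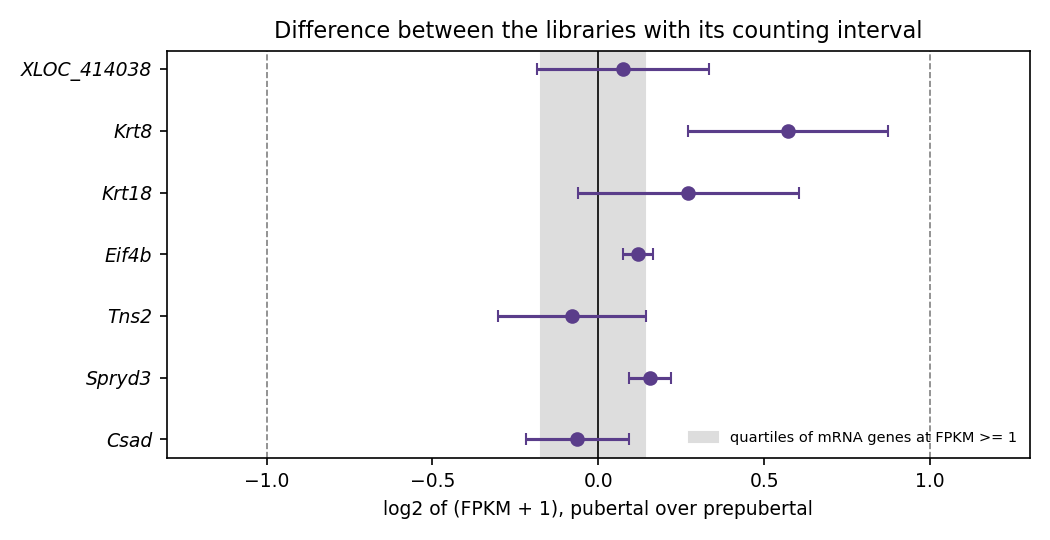
log2 of (FPKM + 1) in the pubertal over the prepubertal library for each member, with bars for the 95% counting interval, dashed lines at the 2-fold rule and a grey band for the quartiles of expressed mRNA genes. Krt8 at 0.57 lies outside the band with its whole interval, and the intervals of XLOC_414038, Krt18, Tns2 and Csad include 0.

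Between Spryd3 and Csad lie the other genes that the study listed beside the locus. Igfbp6 (ENSRNOG00000010977), which codes for a binding protein of insulin-like growth factors, rested on 98 fragments before and 65 fragments at puberty, and the interval of its FPKM ratio, 0.606 to 1.16, includes 1. Soat2, a gene of cholesterol ester synthesis, rested on 1 fragment before puberty, 0.0249 FPKM, and was listed at 0 at puberty. Beyond the listed genes, in the order of GRCr8, the 5 genes before Krt8 are all keratins. Of these Krt77 was at 1.44 and 1.55 FPKM with Krt76 at 0.226 and 0.0825 FPKM and Krt4 at 0.142 and 0.136 FPKM next, so Krt8 and Krt18 had the highest levels of the keratins at this end of the cluster. On the other side of Csad, the zinc finger gene Znf740 was at 34.6 and 30.01 FPKM, the integrin gene Itgb7 at 0.0813 and 0.156 FPKM, the retinoic acid receptor gene Rarg at 2.12 and 1.87 FPKM and Mfsd5 at 14.9 and 12.4 FPKM. The 5th gene on that side, LOC134479581, was not matched to the table. These outer genes were chosen after the values of the members were known.

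**Figure D5:**
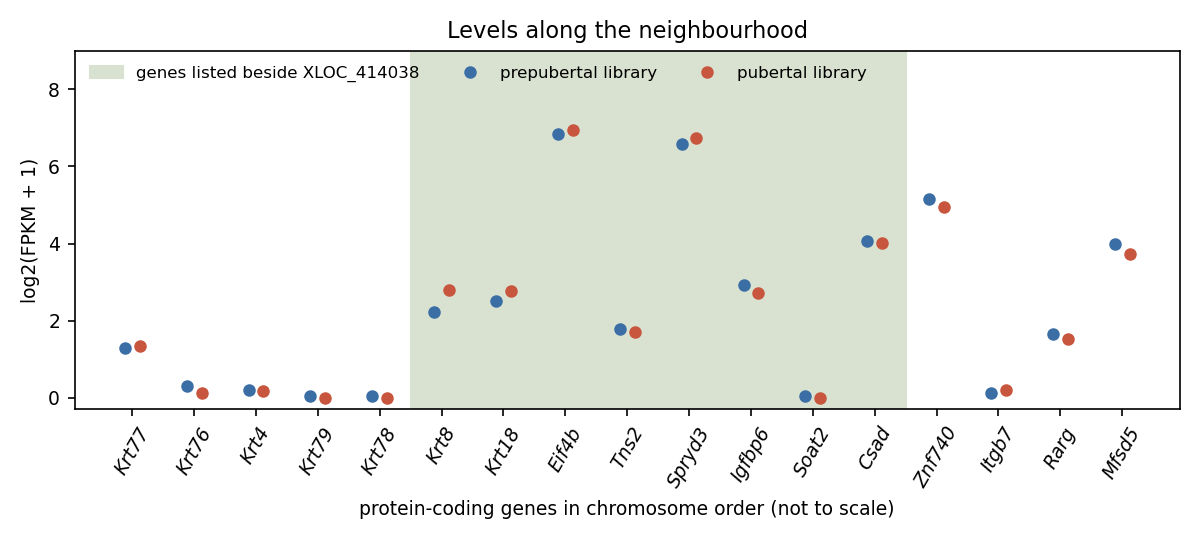
log2(FPKM + 1) of the protein-coding genes around XLOC_414038 in chromosome order (GRCr8, equal spacing), 1 point per library, with the genes listed beside the locus on a shaded ground. Eif4b and Spryd3 stand above all other genes shown, with Tns2 low between them, and Krt8 and Krt18 stand above the 5 keratins beside them, of which Krt77 is the highest.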

How the data were processed

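The authors depleted ribosomal RNA, made strand-specific paired-end libraries, used TopHat for alignment and both Scripture and Cufflinks 2.1.1 for assembly, and estimated FPKM with Cuffdiff 2.1.1. The processing notes name the build Rnor_5.0, while the methods link an annotation of another build. The deposited values are FPKM per transcript. The authors' comparison columns (p-values, q-values and log2 fold changes) were not used, but the gene names and lengths of that table were. FPKM of 13 transcripts, 0 of them of the members, differed between the tables.

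The members and lists were chosen with earlier results of these data known. FPKM was summed per gene, and log2((pubertal + 1) / (prepubertal + 1)) was computed with a pseudocount of 1 and no filter. With 1 library per stage no test was made, and the size rule was 2-fold in FPKM + 1. Fragment numbers were derived from the steps of low FPKM and the code was tested on simulated libraries built with the same formula, which checks the code and not the formula. Intervals are exact Poisson for a level and exact binomial for a ratio. Named genes were the members, the other listed neighbours, and examples from each gene list. The plan was to name 2 to 4 per list, those at FPKM of at least 1 with the largest or smallest differences. This plan was not kept throughout, and genes such as Dlc1 and Nefm, with the largest differences of their lists, were left out above. Other listed genes, and the cell type markers named, were chosen after their values were seen. Sequences were RefSeq's (GRCr8) or the deposited ones. Tables were handled in pandas 2.3.3 and numpy 2.4.6 under Python 3.11.15, intervals came from scipy 1.17.1, and plots from matplotlib 3.10.9.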

Additional observations from a re-analysis of the deposited data

How the results depend on the processing

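Of 58 alternative values, 43 stayed within the counting interval of the reported value (for a single transcript, one computed from the fragments the authors' fit gave it, which leaves out the error of that assignment), or within 1.5 times of it for a count, and 15 moved. With equal Actb the differences of Tns2 and Csad, whose intervals included none as deposited, changed sign. With a factor of 1.32 on the pubertal library for equal Actb, the log2 ratio was 0.40 for XLOC_414038, 0.93 for Krt8, 0.62 for Krt18, 0.52 for Eif4b, 0.21 for Tns2, 0.56 for Spryd3, 0.32 for Csad and 0.84 for TCONS_00465243, all raised by the factor. With a factor of 1.05 for equal medians, Eif4b was at 0.18 and Spryd3 at 0.22. The transcript with the highest mean FPKM gave 0.51 for XLOC_414038, as the other transcript was left out. A pseudocount of 0.1 gave -3.70 for TCONS_00465242, whose value at 0 makes it depend on the pseudocount, and 1189 mRNA genes past 2-fold in place of 155, while a 1.5-fold rule gave 749. With transcripts of at least 1000 nt alone, 8 lncRNA loci in place of 110 had a transcript at 0 at puberty beside another above 0 in both, 8 of 96 in place of 110 of 387, so the share was lower as well as the number of loci. No paired analysis was possible because each stage has 1 library. Besides depth, the scaling bears on the counting intervals of Krt18, Csad and XLOC_414038, which include no difference as deposited and with equal medians but exclude it with equal Actb. That of Tns2 includes it under all 3.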

Other observations

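Among the 110 lncRNA loci, XLOC_414038 included, with a transcript listed at 0 at puberty beside another above 0 in both libraries, the 3 named here had a prepubertal FPKM of that transcript nearest to that of TCONS_00465242. The likeness is the absolute log2 difference of that FPKM, 0.0084, 0.018 and 0.023 for these 3, and rests on 2 libraries. TCONS_00353183 of XLOC_313406, 456 nt long, had 1.21 FPKM before puberty, and TCONS_00374794 of the same locus had 0.515 and 3.45 FPKM. TCONS_00447835 of XLOC_397459, 1263 nt long, had 1.21 FPKM, and TCONS_00466875 had 1.48 and 8.48 FPKM. TCONS_00448001 of XLOC_397622, 437 nt long, had 1.22 FPKM, and TCONS_00466876 had 0.265 and 1.15 FPKM. The longest of the 3 transcripts at 0, of 1263 nt, is shorter than the 2365 nt of TCONS_00465242.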
